A study of Mus musculus with 80 samples.

Results

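Transcripts of skeletal muscle were followed in 80 mammary tumours of mice. The genes are 38 listed genes of the contractile apparatus, its calcium supply and its energy supply, each read by its brightest probe set. Of the 38, 35 had a probe set that carried a single gene symbol, out of 12393 such genes on the array. A filter on low values left 24 of the 38 for testing, among 8766 tested genes. Mybpc1, Mybpc2 and Ampd1 had no such probe set. Myh8, Myl2, Myl3, Tnnt1, Tnni1, Actn2, Ryr1, Cacna1s, Ckmt2, Pygm and Cox8b were measured but did not pass the filter, and they are described without a test.

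All tumours came from FVB mice with the MMTV-Myc transgene, which expresses the Myc oncogene mainly in mammary epithelium. They fell into 4 groups of 20 tumours, with 1 array each: wild type for the E2F genes, E2F1 null, E2F2 null and E2F3 heterozygous. The E2F genes encode transcription factors of cell cycle entry, and the wild-type tumours, which carry the transgene too, are the controls. Each tumour was frozen when it reached its endpoint, and RNA was taken from the bulk tissue. Per the labels, tumours also carry a number, here called the label number, of which there were 16, 16, 11 and 10 in the 4 groups. The sources used here do not say what it stands for. Tumours that share it may come from 1 mouse, so the spread between tumours may not be a spread between mice. The labels used here give no age or sex. Over the tested genes, E2F1 null tumour 6 stood apart, with a mean correlation with the other arrays of 0.807, where the next lowest was 0.848 and the median 0.906.

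Skeletal muscle fibres are multinucleate cells packed with sarcomeres, in which thick filaments of myosin pull on thin filaments of actin. Calcium released from the sarcoplasmic reticulum frees the thin filament through the troponin complex, and creatine kinase, glycogen breakdown and mitochondria supply the ATP. Fast and slow fibres use different isoforms of most of these proteins. The mammary gland lies under the skin near the muscles of the body wall and thin skin muscle, and its own epithelium is not known to build striated sarcomeres.

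The RefSeq promoter windows of the mouse assembly GRCm38.p6, from 250 bases before to 50 bases after each gene's start, covered 31 of the 38 genes in 37 windows. The 4 shown here belong to genes with values in full below: the fast myosin heavy chains Myh4 and Myh1, skeletal actin Acta1 and muscle creatine kinase Ckm. Only the 250 bases before the start are printed, 5′ to 3′, for Myh4 at chr11:67237562-67237811 (plus strand), Myh1 at chr11:67199852-67200101 (plus strand), Acta1 at chr8:123894776-123895025 (minus strand) and Ckm at chr7:19410844-19411093 (plus strand). Capitals mark matches, on either strand, to the E-box CAGCTG bound by the MyoD family, to the box of MEF2, to the CArG box of serum response factor, and to TATAAA.
Myh4: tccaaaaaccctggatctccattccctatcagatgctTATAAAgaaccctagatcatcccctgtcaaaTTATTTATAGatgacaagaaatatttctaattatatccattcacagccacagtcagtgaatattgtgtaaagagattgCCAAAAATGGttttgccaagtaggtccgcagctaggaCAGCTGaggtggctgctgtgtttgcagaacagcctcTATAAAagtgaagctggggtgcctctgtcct
Myh1: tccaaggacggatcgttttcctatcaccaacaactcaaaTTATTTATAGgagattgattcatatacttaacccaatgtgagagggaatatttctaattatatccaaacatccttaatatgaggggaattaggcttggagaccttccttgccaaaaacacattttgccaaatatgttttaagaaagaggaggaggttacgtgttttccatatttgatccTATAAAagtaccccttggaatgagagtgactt
Acta1: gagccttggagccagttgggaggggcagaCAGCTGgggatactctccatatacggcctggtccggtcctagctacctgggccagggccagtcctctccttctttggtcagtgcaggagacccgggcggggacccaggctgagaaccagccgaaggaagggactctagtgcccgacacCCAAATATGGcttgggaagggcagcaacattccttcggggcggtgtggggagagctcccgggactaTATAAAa
Ckm: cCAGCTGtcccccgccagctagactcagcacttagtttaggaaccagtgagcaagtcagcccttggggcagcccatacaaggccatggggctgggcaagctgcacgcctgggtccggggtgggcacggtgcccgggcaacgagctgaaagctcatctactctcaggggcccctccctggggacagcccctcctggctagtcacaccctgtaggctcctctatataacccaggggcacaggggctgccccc
Myh4 held a MEF2 match that began 182 bases before the start, a CArG match at 104, a CAGCTG at 67 and TATAAA at 213, 179 and 31. Myh1 held a MEF2 match at 211 and TATAAA at 208 and 32. In both genes a TATAAA lay within the MEF2 match. Acta1 held CAGCTG at 221, a CArG match at 73 and TATAAA at 7, and Ckm held CAGCTG at 249. Over the whole windows, CAGCTG occurred in 19 of the 31 genes (61.3%) against 18.3% of 27025 genes with windows of the same length. The wider E-box CANNTG, which includes every CAGCTG, occurred in 87.1% against 75%. The MEF2 box occurred in 5 of 31 genes (16.1% against 3.7%), the CArG box in 4 (12.9% against 1.81%) and TATAAA in 9 (29% against 15.7%). These are letter matches, described without a test, and say nothing of binding in these tumours.

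The levels of most of these genes differed between tumours far more than those of other genes. Values are log2 of the deposited intensity plus 5, and the filter stood at 6.31 on that scale (an intensity of 74.6). The median SD over the 80 tumours was 1.30 for the 24 tested muscle genes, from 0.47 for Ldb3 to 2.67 for Tnnc2, against 0.36 for all tested genes. An SD above 1 was found in 18 of the 24, and in 8.66% of the 8766 tested genes. The comparison was not matched for intensity, and low values are partly noisy. Myh8 and Cacna1s, never above the filter, had SDs of 0.74 and 0.91. Ldb3, Eno3 and Tpm2, above it in all 80 tumours, had 0.47, 0.56 and 1.05.

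Of the thick filament genes, Myh1, Myh2 and Myh4 encode the fast myosin heavy chains IIx, IIa and IIb. Myh1 ran from 2.81 through a median of 6.13 to 10.62 in wild type, from 3.09 through 5.89 to 11.11 in the E2F1 null group, from 2.96 through 6.35 to 10.69 in the E2F2 null group, and from 2.47 through 7.94 to 11.61 in the E2F3 heterozygous group. Myh4 ran from 2.49 through 5.46 to 10.23, from 2.65 through 4.35 to 10.16, from 2.54 through 4.85 to 9.18, and from 2.69 through 7.17 to 10.57 in the same order. In every genotype both genes thus went from far below the filter to far above it, and the ranges overlapped almost wholly. Myl1, a fast alkali light chain, had lowest, median and highest values of 2.68, 4.98 and 10.44 in wild type, 2.55, 5.97 and 9.80 in the E2F1 null group, 2.65, 5.63 and 10.63 in the E2F2 null group, and 2.61, 6.85 and 10.14 in the E2F3 heterozygous group. The fast regulatory light chain Mylpf ranged from 5.14 to 10.01 over all tumours, and Myh2 from 2.49 to 10.44. Perinatal Myh8 stayed below the filter in all 80 tumours, at 5.13 or less. The slow light chains Myl2 and Myl3 passed it in 5 and 4 tumours.

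Of the thin filament genes, Acta1, the actin of the skeletal sarcomere, was above the filter in 58 tumours. Its lowest, median and highest values were 4.26, 7.45 and 11.92 in wild type, 4.58, 8.56 and 11.57 in the E2F1 null group, 3.10, 7.97 and 12.21 in the E2F2 null group, and 3.10, 8.77 and 11.96 in the E2F3 heterozygous group. Tnnc2, the calcium-binding troponin of fast fibres, had values of 2.60, 5.66 and 10.53 in wild type, 2.67, 5.09 and 10.53 in the E2F1 null group, 2.64, 5.94 and 10.55 in the E2F2 null group, and 2.67, 7.16 and 10.76 in the E2F3 heterozygous group. Both genes had high tumours and low tumours in each genotype. Tnnt3, the fast tropomyosin-binding troponin, had values of 2.73, 4.92 and 9.42, of 2.65, 4.78 and 8.74, of 2.50, 5.10 and 9.03, and of 2.93, 6.27 and 9.33 in the same order of genotypes. The fast inhibitory troponin Tnni2 ranged from 2.83 to 9.64. Tropomyosin Tpm2, which smooth muscle and myoepithelium also make, was above the filter in all 80 tumours and ranged from 7.67 to 12.82. The slow troponins Tnnc1, Tnnt1 and Tnni1 were above the filter in 11, 4 and 3 tumours.

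At the Z disc, where thin filaments are anchored, Myot (myotilin) had lowest, median and highest values of 2.43, 4.20 and 7.46 in wild type, 2.47, 4.26 and 7.50 in the E2F1 null group, 2.47, 4.31 and 8.32 in the E2F2 null group, and 2.56, 5.24 and 8.62 in the E2F3 heterozygous group. Actn3, the alpha-actinin of fast fibres, had 3.24, 5.71 and 7.72, then 3.20, 5.18 and 8.12, then 2.94, 5.45 and 7.24, then 3.32, 5.60 and 7.87. The intermediate filament gene Des (desmin) had 3.61, 5.71 and 7.26, then 3.76, 6.01 and 8.51, then 3.81, 6.004 and 7.15, then 3.57, 6.20 and 8.06. The genotypes overlapped in all 3 genes. Tcap (telethonin), which caps titin, ranged from 2.90 to 8.21 over all tumours. Ldb3, a PDZ-LIM protein of the Z disc, was above the filter in all 80 tumours and ranged only from 8.53 to 10.85. Actn2, the other sarcomeric alpha-actinin, passed the filter in 9 tumours.

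Of the calcium genes, Atp2a1, the fast calcium pump of the sarcoplasmic reticulum, had lowest, median and highest values of 3.09, 6.07 and 8.95 in wild type, 2.96, 5.69 and 9.04 in the E2F1 null group, 2.76, 5.94 and 8.80 in the E2F2 null group, and 4.00, 6.80 and 9.34 in the E2F3 heterozygous group. Pvalb (parvalbumin), the soluble calcium buffer of fast fibres, had 3.01, 5.40 and 8.06, then 3.00, 5.38 and 8.11, then 3.30, 5.43 and 7.51, then 4.05, 5.79 and 8.09. Casq1 (calsequestrin), the calcium store protein, varied less, with 4.24, 5.48 and 7.43, then 3.86, 5.59 and 6.83, then 4.73, 5.64 and 7.04, then 3.61, 5.63 and 7.06. Here too, each genotype spanned low and high values. The release channel Ryr1 passed the filter in 8 tumours, and its voltage sensor Cacna1s in 0.

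Of the energy genes, Ckm, which buffers ATP through phosphocreatine, had lowest, median and highest values of 5.06, 5.58 and 9.64 in wild type, 3.69, 6.19 and 9.60 in the E2F1 null group, 3.62, 6.04 and 8.73 in the E2F2 null group, and 4.44, 6.48 and 9.46 in the E2F3 heterozygous group. The muscle phosphoglycerate mutase Pgam2 had 2.81, 3.83 and 6.84, then 3.45, 4.00 and 6.97, then 3.47, 3.96 and 7.23, then 2.87, 3.84 and 7.22, so that most tumours were low and 11 passed the filter. Mb (myoglobin), the oxygen store of oxidative fibres, had 4.84, 8.06 and 9.23, then 5.84, 7.72 and 9.52, then 5.66, 8.34 and 9.47, then 5.65, 8.33 and 9.53, and passed the filter in 73 tumours. The muscle enolase Eno3 did so in all 80, with a range of 6.43 to 8.76. The cytochrome oxidase subunit Cox6a2 ranged from 4.91 to 7.81. Glycogen phosphorylase Pygm, mitochondrial creatine kinase Ckmt2 and the oxidase subunit Cox8b passed the filter in 6, 5 and 8 tumours.

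**Figure D1:**
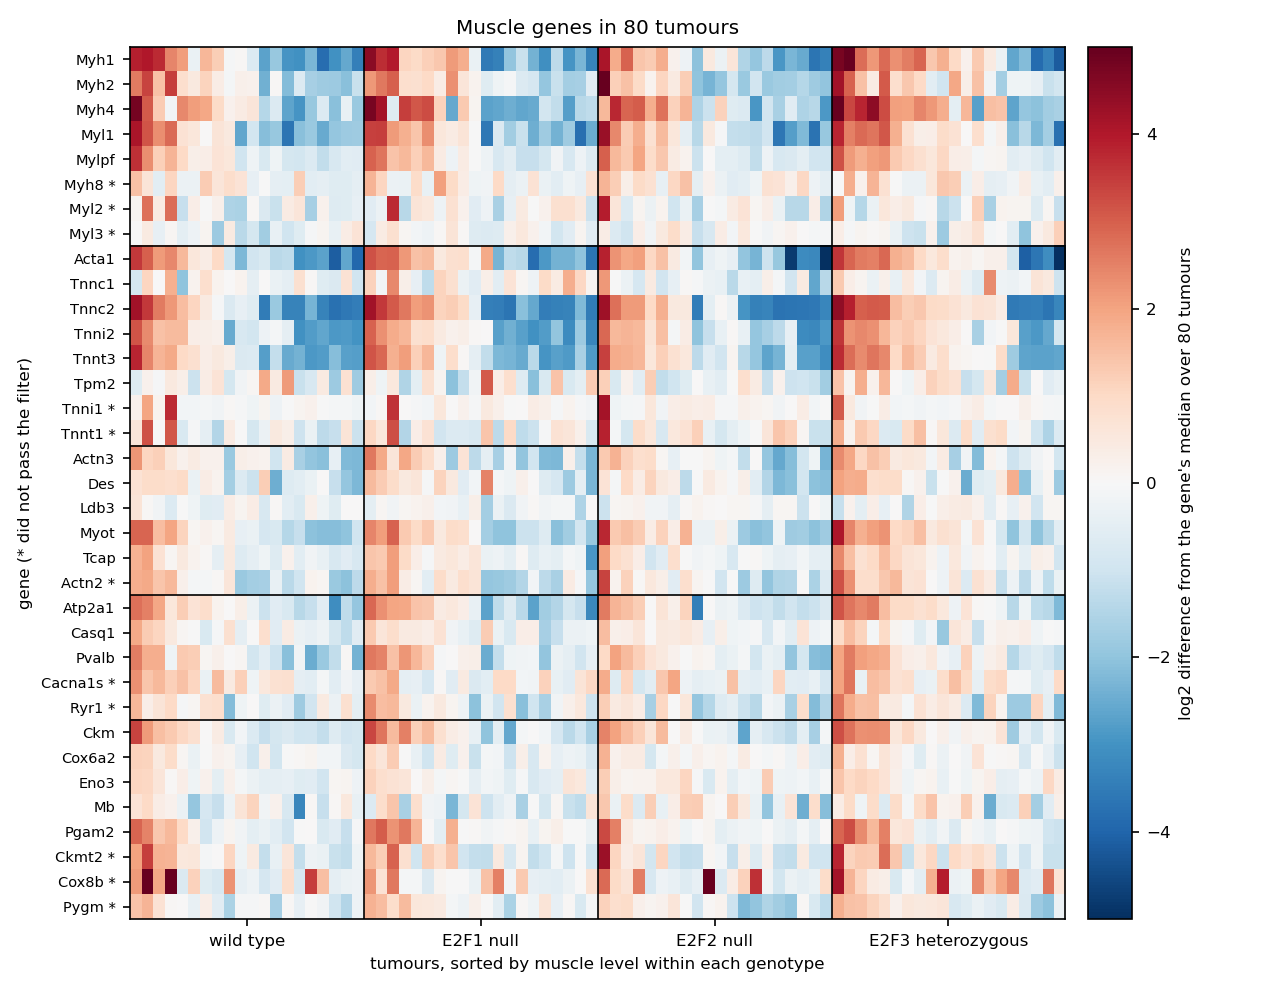
Each row is 1 of the 35 measured muscle genes, grouped by role, and each column 1 of 80 tumours, sorted by muscle level within its genotype. Colour gives the log2 difference from the gene's median over all tumours, and an asterisk marks the 11 genes that did not pass the filter. Most rows are red in the same few tumours at the left of each genotype. Ldb3, Mb, Tpm2, Tnnc1 and Myl3 do not follow, and Cox8b, Myl2, Tnni1, Tnnt1 and Myh8 follow weakly.

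Most of the muscle genes varied together. The level of the other tested muscle genes in a tumour was taken as the median of their log2 differences from their medians over all tumours. Over 80 tumours, Tnnt3 had a Pearson r of 0.95 (Spearman rho 0.95) with the level of the other genes, Tnnc2 0.94 (0.93), Mylpf 0.93 (0.89), Myl1 0.93 (0.92), Myh1 0.92 (0.92), Acta1 0.91 (0.95), Myot 0.91 (0.91) and Ckm 0.89 (0.87). With the 2 tumours farthest from the median left out, these r were 0.95, 0.94, 0.92, 0.92, 0.91, 0.91, 0.91 and 0.87. Within the groups Tnnt3 had r = 0.96 in wild type and E2F1 null and 0.94 in E2F2 null and E2F3 heterozygous tumours. An r above 0.5 was found for 20 of the 24 tested genes. Over the 276 pairs of tested muscle genes the median r was 0.60 and the lowest -0.43, and the median over all pairs of the 8766 tested genes was 0.01. Genes with low values had partly noisy readings, and points that share a label number are not independent, so these correlations are a description with no test.

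Of the 4 tested genes that did not follow, Ldb3 had r = 0.03, Tpm2 0.18, Tnnc1 0.23 and Mb 0.29. For Ldb3 and Tpm2 this differed between probe sets. The 2 brighter probe sets of Ldb3 had r of 0.03 and 0.01, and its dimmest, above the filter in 2 tumours, had 0.69. The 2 brighter probe sets of Tpm2 had 0.18 and 0.21, and the 2 dimmer ones 0.54 and 0.49. The second probe set of Mb, never above the filter, had -0.14. Of the 11 genes that did not pass the filter, 5 had an r above 0.5: Actn2 (0.81), Ckmt2 (0.75), Pygm (0.75), Ryr1 (0.65) and Cacna1s (0.52). The rest were Myh8 (0.46), Tnnt1 (0.45), Tnni1 (0.41), Myl2 (0.36), Cox8b (0.32) and Myl3 (0.09).

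The muscle level of a tumour, taken over all 24 tested genes, ran from -1.84 to 3.03 on the log2 scale. Its lowest, median and highest values were -1.43, -0.32 and 2.68 in wild type, -1.43, -0.33 and 2.62 in the E2F1 null group, -1.84, -0.20 and 2.33 in the E2F2 null group, and -0.98, 0.31 and 3.03 in the E2F3 heterozygous group. The genotypes overlapped over nearly the whole range, with SDs of 1.18, 1.21, 1.08 and 1.13. A gene was called high in a tumour where it lay more than 2 above its median, a 4-fold difference in intensity plus 5. In 50 tumours 0 of the 24 genes were high, in 20 tumours 1 to 9 were, and in 10 tumours at least 10 were. These 10 were wild-type tumours 20 and 7, E2F1 null tumours 9 and 1, E2F2 null tumour 7, and E2F3 heterozygous tumours 12, 2, 3, 15 and 4, where numbers follow the order of deposition within a genotype. The counts of 2, 2, 1 and 5 tumours depended on the threshold: at a difference above 1 they were 5, 6, 5 and 6, and at a difference above 3 they were 0, 0, 0 and 1. With a pseudocount of 16 the E2F3 heterozygous count was 2, and with values below the filter set to it the counts were 1, 2, 1 and 1.

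**Figure D2:**
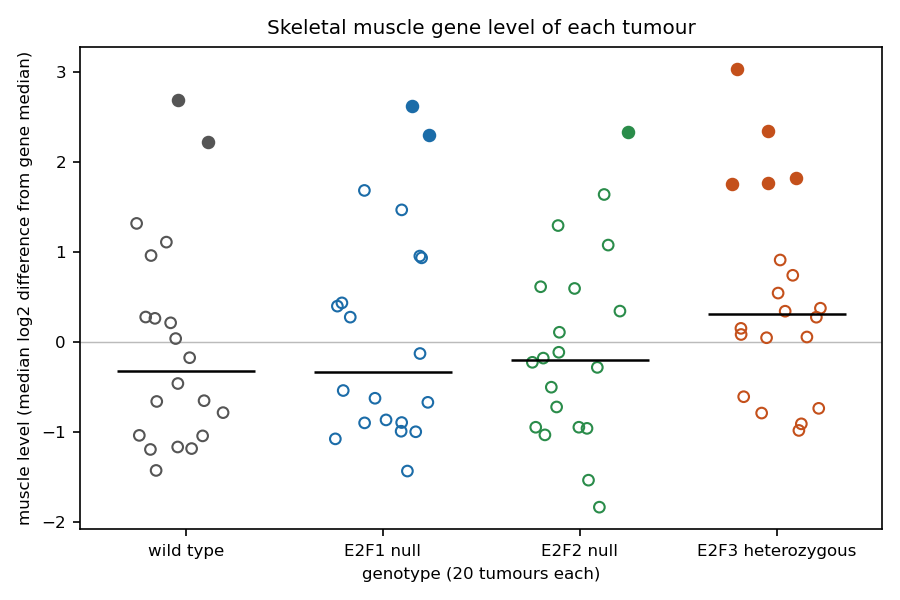
Each point is 1 tumour, with its muscle level (the median log2 difference of 24 genes from their medians over 80 tumours) on the vertical axis and its genotype on the horizontal axis. Filled points mark the 10 tumours with at least 10 genes high, and bars mark the group medians of -0.32, -0.33, -0.20 and 0.31. Low and high tumours occur in all 4 genotypes.

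E2F3 heterozygous tumour 12 had the highest level, with 16 genes high, and the highest reading of 10 of the 35 measured muscle genes. Its Acta1 was 11.96, Myh1 11.37, Tnnc2 10.76, Myh4 10.57 and Ckm 9.46. At the other end, E2F2 null tumour 11 had a level of -1.84, with Acta1 at 3.10, Tnnc2 at 3.08, Myh1 at 3.25 and Myh4 at 2.54. Its Ckm, at 6.13, was near that gene's median of 6.24 over all tumours. Between these 2 tumours Acta1, Tnnc2, Myh1 and Myh4 thus each went from below the filter to among the highest values of the series.

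Tumours that share a label number often differed in their muscle level. Several tumours carried the same number in 19 cases, which held 46 tumours. The gap between the highest and lowest level within a number had a median of 1.44, exceeded 1 in 14 numbers and exceeded 2 in 6. Under number 3560 the 3 E2F2 null tumours ran from -0.96 to 2.33, with 14 genes high in 1 tumour and 0 in the others. Under number 4194, the 2 E2F3 heterozygous tumours had levels of 0.05 and 2.34, with 1 and 14 genes high. Of the 5 shared numbers that held a tumour with at least 10 genes high, 0 held a second one. These numbers held 2 or 3 tumours each, and only 10 of all 80 tumours were of this kind, so the count says little. The correlation within a label number, fitted gene by gene, had a median of -0.06 over the 24 muscle genes and 0.16 over all tested genes.

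**Figure D3:**
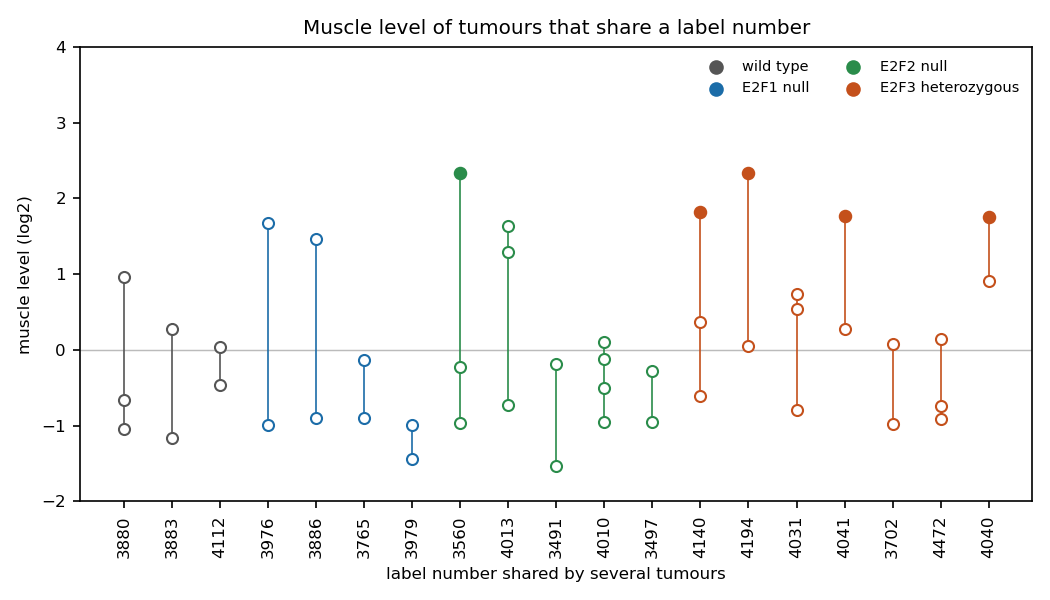
Each column is 1 of the 19 label numbers shared by several tumours of a genotype, and each point gives the muscle level (log2) of 1 tumour. Filled points have at least 10 muscle genes high. In 14 columns the highest and lowest tumour differ by more than 1.

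Fast and slow fibre genes did not always go together. The fast level of a tumour is the median log2 difference over 12 measured genes (Myh1, Myh2, Myh4, Mylpf, Myl1, Tnnt3, Tnnc2, Tnni2, Actn3, Atp2a1, Casq1 and Pvalb), and the slow level that over 5 genes (Tnnt1, Tnnc1, Tnni1, Myl2 and Myl3), of which only Tnnc1 passed the filter. In wild-type tumour 20 the fast level was 3.40 and the slow level 0.14, and in E2F1 null tumour 9 they were 2.96 and -0.15. A slow level above 1.5 occurred in 5 tumours, all with a fast level above 1.5. E2F2 null tumour 7 had a slow level of 3.85 and a fast level of 2.93, E2F1 null tumour 16 had 3.20 and 1.82, and wild-type tumour 1 had 2.80 and 1.63. Wild-type tumour 7 had 1.97 and 2.47, and E2F3 heterozygous tumour 12 had 1.83 and 3.64. Not all of the 5 slow genes were high in these tumours. In E2F2 null tumour 7 and E2F1 null tumour 16, 4 were high, and in wild-type tumour 1, 3 were. Only 2 were high in wild-type tumour 7 and in E2F3 heterozygous tumour 12. Myl3 was high in 0 tumours.

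The tumours with slow genes also differed in their myosins. E2F2 null tumour 7 held the highest Myh2 of the series (10.44, median 4.88), Myl2 (8.30), Tnnt1 (8.01) and Tnni1 (7.01, median 2.84), while its Myh4 was 7.04. E2F1 null tumour 16 had Myl2 at 8.11, Tnnc1 at 7.82 and Tnni1 at 6.46, with Myh1 at 10.57 and Myh4 at 4.84. Tnnc1 alone of the slow genes was high in E2F3 heterozygous tumour 1 (7.79), where the slow level was -0.08. Myh7, the slow myosin heavy chain, is not among the 38 genes and was looked at after these values were seen. It reached 9.05 in E2F1 null tumour 16, 8.36 in E2F2 null tumour 7, and 8.04 and 7.91 in wild-type tumours 1 and 7. In E2F3 heterozygous tumour 12 it was 7.14, against a median of 3.73. It lay more than 2 above that median in 6 tumours, so not only in those with a slow level above 1.5. In wild-type tumour 20 and E2F1 null tumour 9, with high fast and no high slow genes, Myh7 was 5.17 and 2.76, and Myh4 was 10.23 and 10.16. Among the other tumours with slow genes, Myh4 was 5.29 in wild-type tumour 1, 8.49 in wild-type tumour 7 and 10.57, the highest of the series, in E2F3 heterozygous tumour 12, so it was not low in all of them.

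**Figure D4:**
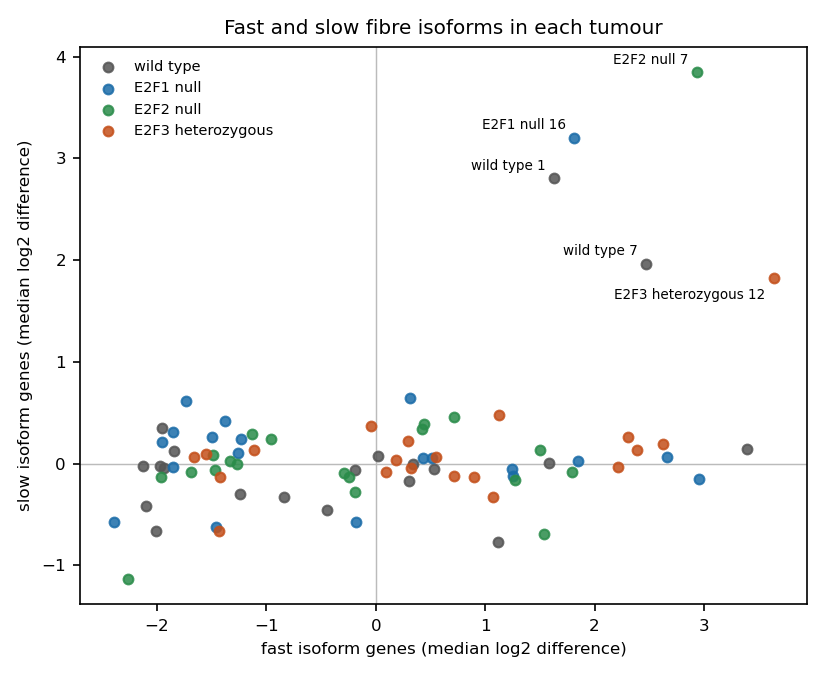
Each point is 1 of 80 tumours, with the median log2 difference of 12 fast isoform genes on the horizontal axis and of 5 slow isoform genes on the vertical axis, coloured by genotype. The 5 labelled tumours have slow levels from 1.83 to 3.85, and the other 75 lie between -1.13 and 0.64 at all fast levels.

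Some genes were high in tumours with a low muscle level. E2F1 null tumour 6, the array that stood apart, had Des at 8.51 and Tpm2 at 12.82, both the highest of the series. Its Acta1 was 10.28 against a median of 8.38, just short of the limit for high. Its Ckm was 4.22, Myh1 3.09, Tnnc2 2.90, and its muscle level -0.54. The smooth muscle genes Acta2 (13.88) and Tagln (12.44) and Dcn, Lum and Fbln2, the most variable collagen matrix genes, were also highest there. Of the other smooth muscle genes, Myh11, Cnn1 and Actg2 were highest there too, but Smtn, Lmod1 and Mylk in other tumours. Most of the endothelial genes also peaked in this tumour. So did the macrophage genes Csf1r, Mrc1 and Itgam, but not Cd68, Adgre1, Cd14 and Lyz2. In E2F2 null tumour 5, Cox8b, an isoform of heart, muscle and brown fat, reached 10.14, the highest of the series, with a muscle level of -0.18. The brown fat gene Ucp1 (11.70) and Cox7a1 (8.72) were also highest there. The other measured brown adipocyte genes, Cidea, Elovl3, Ppargc1a and Dio2, were highest in other tumours. Cidea was 10.48 in E2F2 null tumour 5 and 12.12 in wild-type tumour 20, where Ucp1 was 2.96 and Cox8b 5.68. Cox8b was 9.06 and 8.90 in wild-type tumours 7 and 1, where Ucp1 was 10.33 and 6.61. In all, Cox8b was high in 17 tumours, among them E2F2 null tumour 14 (7.17, muscle level -0.72) and wild-type tumour 2 (6.99, level -1.04). Tpm2 was 11.89 in wild-type tumour 18, whose level was -0.79. The part of brown fat or smooth muscle in these readings was not tested.

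No muscle gene differed between genotypes by the test. In limma, with the label number as a random block and Benjamini-Hochberg adjustment over 8766 genes, 0 of the 24 tested muscle genes were called in E2F1 null tumours against wild type, where 0.0456% of all tested genes were called (4 genes). In E2F2 null tumours 0 of 24 were called, against 0.0228% of all genes (2 genes). In E2F3 heterozygous tumours 0 of 24 were called, against 0% of all genes. The moderated F test among the 4 genotypes called 0 of 24, against 0.148% of all genes (13 genes). At an unadjusted p under 0.05 the muscle genes counted 0 in all 4 tests, where 1.29%, 6.14%, 0.662% and 4.24% of all genes had such a p (113, 538, 58 and 372 genes). The 3 comparisons share the wild-type tumours.

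The estimates in E2F3 heterozygous tumours were positive for all 24 genes, where 53.2% of all tested genes had a positive estimate. Alternatives that tested the same 24 genes gave 22 to 24 positive estimates (22 with array weights, 23 with quantile normalization). In the main fit the median log2 fold change was 0.55 (all genes 0.01) and the range 0.03 to 1.27. That this gene group had on the whole higher values in these tumours was known from earlier work on the same data. The genes vary together across tumours, so the 24 estimates are not independent. The largest estimates were 1.27 (SE 0.90, 95% interval -0.52 to 3.06) for Tnnc2 and 1.16 (SE 0.86, -0.54 to 2.87) for Myh1. Ckm had 0.60 (SE 0.46, -0.32 to 1.52) and Acta1 0.88 (SE 0.80, -0.72 to 2.48). The smallest p belonged to Eno3, with 0.32 (SE 0.19, -0.06 to 0.69, limma p = 0.0980 and adjusted p = 1). The intervals of all 24 genes held 0.

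Estimates for the other named genes in E2F3 heterozygous tumours were 1.02 (SE 0.77) for Myh4, 0.94 (SE 0.71) for Myl1, 1.01 (SE 0.67) for Tnnt3, 0.74 (SE 0.55) for Myot and 0.45 (SE 0.44) for Actn3. They were 0.48 (SE 0.39) for Des, 0.59 (SE 0.52) for Atp2a1, 0.62 (SE 0.44) for Pvalb, 0.30 (SE 0.40) for Pgam2, 0.30 (SE 0.36) for Mb and 0.03 (SE 0.25) for Casq1. By role, the median estimate was 0.94 for 5 thick filament genes, 0.91 for 6 thin filament genes, 0.45 for 5 Z disc genes, 0.59 for 3 calcium genes and 0.30 for 5 energy genes. The sign of the Casq1 estimate was not stable: it was -0.031 with quantile normalization and -0.036 with 1 mean per label number.

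In E2F1 null tumours 16 of the 24 estimates were positive (53.3% of all genes), with a median of 0.09 and a range of -0.23 (Myh4) to 0.48 (Pgam2). The sign of the Myh4 estimate was not stable: it was positive with values below the filter set to it. The smallest p was that of Tnnc1, with 0.37 (SE 0.28, limma p = 0.188, adjusted p = 1). In E2F2 null tumours 11 of 24 were positive (46.3% of all genes), with a median of -0.01 and a range of -0.44 (Myh2) to 0.21 (Mb). The Mb estimate was negative with a single mean per label number. Tnnc1 again had the smallest p, with -0.38 (SE 0.29, limma p = 0.201, adjusted p = 0.824). The median SE over the muscle genes was 0.43, 0.44 and 0.44 in the 3 comparisons, against 0.12 over all genes in each. The 95% interval of Acta1 ran from -1.10 to 2.00 in E2F1 null tumours.

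**Figure D5:**
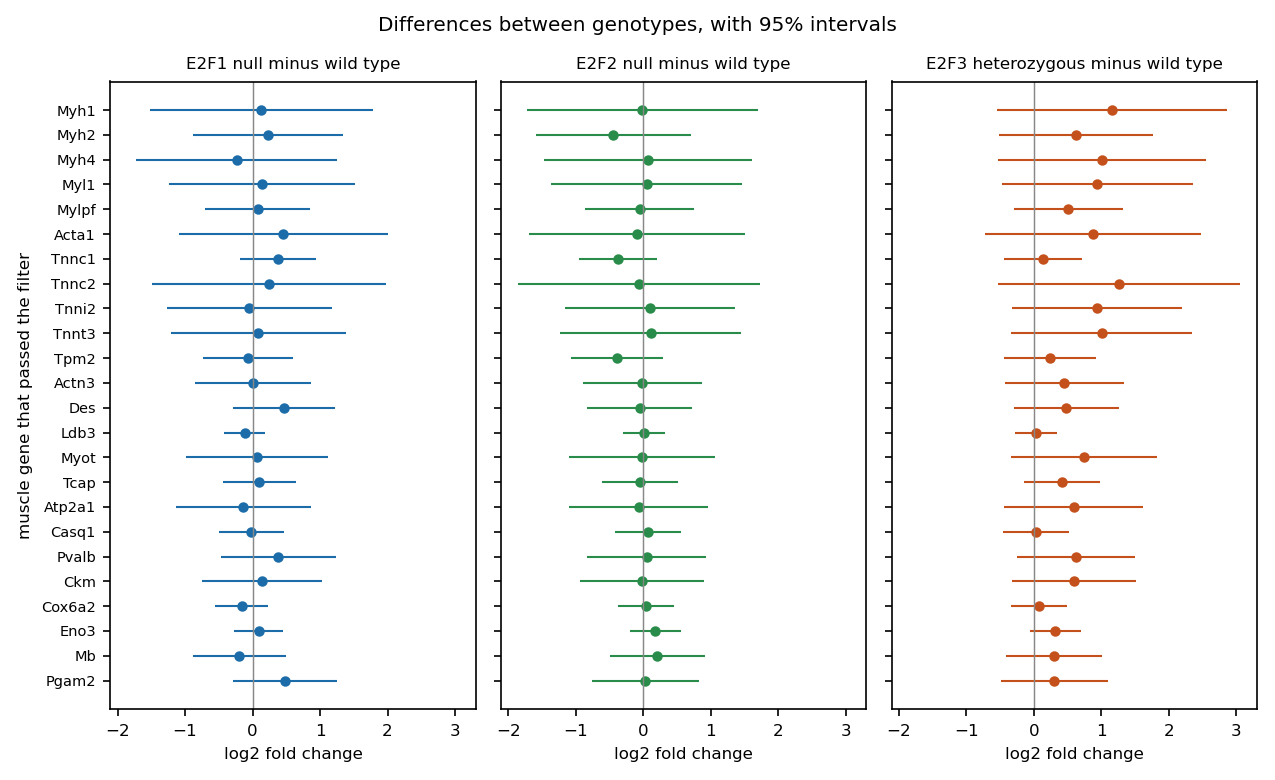
Points give the log2 fold change of each of the 24 tested muscle genes in each genotype against wild type, by limma, and bars the 95% intervals. All intervals cross 0, and the E2F3 heterozygous estimates lie between 0.03 and 1.27 in this fit. Under some alternatives not all of them are positive (with quantile normalization Casq1 lies at -0.031).

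Some other muscle genes that are not among the 38 followed the same tumours, and most did not. Of the 8742 other tested genes, 9 had a Pearson r above 0.5 with the muscle level, and the median r was -0.02. Ttn, the giant titin of the sarcomere, had 0.96 (rho 0.93), with a range of 3.82 to 10.11. Csrp3, a muscle LIM protein, had 0.80, Myoz1, a calcineurin-binding Z disc protein of fast fibres, 0.73, Fhl1 0.67, Sln, a regulator of the calcium pump, 0.64, and Myom1, which links myosin at the M line, 0.58. Pde4dip had 0.57, Car3 0.55 and Apobec2 0.53. The next were Rnf183 (0.49), Tmod4 (0.49), Aqp3 (0.48), Eef1a2 (0.41), Trim6 (0.41), Noct (0.41) and Gda (0.40), then Slc30a2, Fabp5, Glipr1 and Cdc34, at 0.39 to 0.40. Of the 9 genes with an r above 0.5, Sln, Fhl1, Car3 and Apobec2 were highest in tumours with a low muscle level. These levels were -1.03, -0.54, -0.72 and -1.54 in the same order. Ttn, Csrp3, Myoz1, Myom1 and Pde4dip were highest in E2F2 null tumour 7 or E2F3 heterozygous tumour 12. Correlations in the other direction were weaker: Nfix had -0.49, Gstm1 -0.45, Zfp943 -0.44, Efs -0.44 and Vnn1 -0.43, and Vegfb, Ccrl2, Slc48a1, Vps33b and Auts2 had values from -0.41 to -0.40.

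Of a further list of 36 muscle structure genes, 25 were measured, 9 were tested and 0 were called in any of the 3 comparisons; 9 of the 25 had an r above 0.5. Of 21 calcium and excitation genes, 17 were measured, 4 tested and 0 called, and Trdn (triadin, 0.77) and Sln had an r above 0.5. Of 20 energy genes, 17 were measured, 15 tested and 0 called, and 0 had an r above 0.5. Their most variable members, Fabp3 (0.24), Pdk4 (0.30) and Fbp2 (0.27), followed weakly. Genes of these lists that were above the filter in 78 or 80 tumours but had r near or below 0 include Tpm1 (0.00), Fbxo32 (-0.04), Dmd (-0.27) and Ppp1r3c (-0.29), which were chosen after their values were seen. Of 12 genes of muscle precursors and regeneration, all were measured and 2 tested, with 0 called. Myod1, Myog and Myf5, the factors that drive muscle differentiation, stayed below the filter in all 80 tumours, with highest values of 5.64, 5.79 and 4.36, and their r was -0.02, 0.23 and 0.03. Myf6, the member of that family found in adult fibres, was also never above the filter (highest 5.74) but had r = 0.64. Embryonic Myh3 was never above it either. The cardiac genes Myh6, Nppa and Myl7 were never above it, and Tnnt2, Tnni3 and Nppb, the tested ones of that list, had r of 0.04, 0.20 and -0.06.

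Summed markers of other cell types had correlations with the muscle level from -0.15 to 0.30, and single markers from -0.26 (Smtn) to 0.35 (Lipe). In bulk RNA, fewer cells of a type and less RNA per cell cannot be told apart. Of 8 luminal epithelial genes, all passed the filter, and their summed intensity ran from 21127 to 74541 over the 80 tumours. The sum of the 12 measured fast fibre genes ran from 133 to 10854. The correlation of a list's sum with the muscle level was 0.10 for luminal epithelium, 0.30 for basal epithelium, 0.12 for smooth muscle and myoepithelium, 0.22 for white adipocytes, 0.23 for brown adipocytes, 0.17 for fibroblasts, 0.16 for endothelium, -0.15 for Schwann cells, 0.22 for macrophages, 0.23 for milk genes, 0.13 for skin epidermis and 0.03 for blood. The same r was 0.98 for the fast fibre genes, which enter the level. The median log2 value of an array and the log2 ratio of 3' to 5' Gapdh probe sets had r of -0.03 and 0.08.

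Beside the E2F3 heterozygous estimates of the muscle genes, 9 of 10 fibroblast genes (median 0.42), 6 of 6 basal genes (0.35), 6 of 6 milk genes (0.51) and 7 of 8 endothelial genes (0.14) were positive too, with 0 called, where 53.2% of all tested genes were positive. So were 5 of 5 white adipocyte genes (0.18), 7 of 8 luminal genes (0.03) and 4 of 6 macrophage genes (0.11). The count was 3 of 5 for smooth muscle (0.02), 2 of 4 for brown adipocytes (0.00) and 1 of 4 for Schwann cells (-0.09), and 2 of 2 skin genes and 1 of 1 blood gene were positive. Their summed intensities overlapped between genotypes: the fibroblast sum ran from 5272 to 84712 in wild type and from 7665 to 72102 in E2F3 heterozygous tumours, and the basal sum from 294 to 16604 and from 434 to 10823. The milk sum ran from 8704 to 101104 and from 14194 to 92051, and the endothelial sum from 731 to 3390 and from 840 to 2793. Their part in the muscle result was not tested.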

How the data were processed

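Total RNA of 80 frozen mammary tumours was hybridised to 1-colour Affymetrix arrays, 1 per tumour. The deposited intensity values are linear and were made by the authors with MAS5 in Affymetrix Expression Console, per the submitters' processing notes, which list no version. On every array the mean without the outer 2% of values lay between 500.17 and 500.22, so arrays were already scaled to a common mean, and a change in total mRNA cannot be seen.

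After 64 control probe sets were left out, values became log2(value + 5). Probe sets with several gene symbols or none (691 and 1555 of 22626) were not used. Each gene took its brightest probe set and was tested if above the 40th percentile on at least 10 of 80 arrays. The fit was made in R 4.3.3 by limma 3.58.1, with label number as a random block (consensus correlation 0.159, from statmod 1.5.0) and robust moderation along an intensity trend. Two-sided p-values were adjusted by Benjamini-Hochberg, with a threshold of 0.05, and the fit was tested on simulated data. Standard errors rest on the spread between tumours and on the number of arrays.

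The muscle genes, gene lists, tests and alternatives were chosen with earlier results of these data known. Full values are given for Ckm, Acta1, Mb and the 3 tested genes with the largest SD in each of 5 role groups. In each comparison the gene with the smallest p is named, as are the 20 most and 10 least correlated other genes. Genes of other lists are named by SD or after their values were seen. Coordinates and promoter sequences come from RefSeq (GRCm38.p6); the deposited values name no build. The alternatives were other pseudocounts, filters, a floor, quantile normalization, other probe set rules, no block, means per label number, other moderation, array weights and leaving out E2F1 null tumour 6.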

Additional observations from a re-analysis of the deposited data

How the results depend on the processing

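Under 13 alternatives, 0 muscle genes were called in each of the 3 comparisons and in the F test, by adjusted and by unadjusted p, and the smallest adjusted p of a named gene was 0.641. Of 249 estimates of 22 named fold changes under the alternatives, 243 kept their direction. Among the 6 others, Casq1 in E2F3 heterozygous tumours was -0.032 with a floor at the filter and -0.031 with quantile normalization. It was -0.036 with 1 mean per label number and -0.038 with array weights. Mb in E2F2 null tumours was -0.098 with 1 mean per label number. Myh4 in E2F1 null tumours was 0.25 with the floor, against -0.23 in the main fit, so this reversal was not near 0. The cause of these was not tested.

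A filter on 40 of 80 arrays left 9 muscle genes, with 6 positive estimates for E2F1 null, 4 for E2F2 null and 9 for E2F3 heterozygous tumours, and then 0 tumours of any genotype could have 10 genes high. With the floor, 5 E2F2 null estimates were positive, and 1 wild-type and 1 E2F3 heterozygous tumour had at least 10 genes high. Pseudocount 16 left 2 such E2F3 heterozygous tumours. A threshold of 1 gave 5 wild-type, 6 E2F1 null and 5 E2F2 null tumours, and a threshold of 3 gave 0, 0 and 0, with 1 E2F3 heterozygous. The number of positive E2F3 heterozygous estimates was 22 to 24 of 24 in the alternatives that tested the same 24 genes.

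No paired analysis was possible because the deposition numbers only name tumours and label numbers lie within 1 genotype each, so no number pairs or blocks tumours across genotypes.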
